A study of Mus musculus with 11 samples.

Results

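The 10 genes described here encode proteins of the synaptic vesicle and of the machinery that releases its content, out of 48440 genes in the RNA-seq count table. They were taken by name, not by a threshold on their values, though with earlier results of these data known. Grouped by role they were the vesicle proteins Syp, Syn1 and Syn2, the synaptotagmins Syt1, Syt4 and Syt11, and the membrane fusion proteins Snap25, Stx1a, Vamp2 and Nsf. RNA was measured in neural progenitor cells (NPCs) cultured from mouse brain at embryonic day E14.5, with 3 WT and 3 cKO cultures, and in dissociated E14.5 dorsal telencephalon, with 1 WT and 1 cKO embryo from one pregnant mouse. The mice were C57BL/6. In the study's use of the term, a cKO carried 2 floxed alleles of Syncrip (Syncrip fl/fl), with loxP sites around exons 2 to 4, together with Emx1-Cre, which acts in the progenitors of the dorsal neocortex and their descendants. The sample labels gave WT or cKO and did not name the Cre driver. By the study's methods, NPCs came from tissue around the lateral ventricles and were kept with the mitogens EGF and bFGF, and the number of passages before RNA-seq is not stated there. Cells of the ganglionic eminence, which lie outside the domain of Emx1-Cre, were also present in the single-cell libraries.

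Neurotransmitter is stored in synaptic vesicles, which dock at the active zone of the nerve terminal and fuse with the plasma membrane when calcium enters. Fusion is driven by a bundle of SNARE proteins, with Vamp2 on the vesicle and Stx1a and Snap25 on the plasma membrane. Syt1 senses the calcium, and the ATPase Nsf pulls used SNARE bundles apart for another round. Synapsins tether vesicles to each other and to actin, and synaptophysin is a major protein of the vesicle membrane. In the E14.5 neocortex few synapses have formed, and the same proteins also serve membrane traffic in growing axons and, for broadly used members such as Nsf, in every cell.

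The cultures held 16962903 to 22708400 counts each, of which the 10 members took 0.2198% to 0.2266% in WT and 0.1764% to 0.1853% in cKO. All 48440 genes of the table carried their whole span from start to end as their length, and the 5159 genes that lay wholly inside genes of their own strand, like the 5190 inside genes of the other strand, were each listed at 0. Reads in a stretch shared by overlapping genes were therefore not counted for the inner gene, whatever the strand. Whether they went to the outer gene is not known, and below they are taken as counted for neither gene. As inner genes, Sox2, inside Sox2ot, and Tubb3 could not be measured. Of 10 apical progenitor markers, 8 were at 5 CPM (counts scaled to library size) or more in every culture. By the test described below, 4 were higher and 4 lower in cKO, beside 39.5% of all genes called either way. Syncrip itself was at 77.9, 79.8 and 79.9 CPM in WT, and 90.3, 88.7 and 81.5 in cKO (log2 difference 0.13, SE 0.08, adjusted p = 0.180). These counts are not split by exon and cannot show the loss of exons 2 to 4. In the single-cell libraries, whose UMIs mark the 3′ end and have the same limit, the log2 ratio of Syncrip in cKO over WT was 0.04 (-0.02 to 0.10) in apical progenitor-like, -0.01 (-0.09 to 0.07) in intermediate progenitor-like, 0.26 (0.20 to 0.32) in migrating neuron-like and 0.18 (0.15 to 0.22) in immature neuron-like cells. The same ratio of Syncrip was -0.205 (-0.27 to -0.14) in ganglionic eminence-like and 0.26 (0.004 to 0.51) in Cajal-Retzius-like cells. Y-linked genes were counted in WT cultures 1 and 2 and cKO culture 1, with at most 1 count in each of the others, so the sexes were mixed within both genotypes. The labels do not say that cultures of a genotype came from different embryos, so p-values measure the spread between these cultures, which may be technical. In single cells, 8214 WT and 9560 cKO cells were kept, with medians of 11705 and 11012.5 UMIs (unique molecular identifiers), and 22 barcodes were shared by both libraries. Both libraries held more barcodes than the number of cells the protocol aimed to recover. The WT embryo held 22062 Y-linked and 2 Xist UMIs and the cKO embryo 211 and 105339, so genotype and sex cannot be told apart there. Scrublet called 298 WT and 451 cKO cells as doublets.

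In cultured NPCs, 5 of the 10 members were lower in cKO, 1 was higher and 4 did not pass the test. Syt4 fell most and was 20.1-fold lower. Syp and Snap25 fell by 0.98 and 0.83 on the log2 scale, Syt11 and Syn1 fell by 0.44 and 0.27, and Syn2 rose by 0.59. All 10 passed the filter on low counts. The test was edgeR's quasi-likelihood test on the counts, adjusted by the Benjamini-Hochberg method over 14432 genes with a threshold of 0.05. Across those genes 39.5% were called, 19.8% lower and 19.7% higher. The members' median log2 difference was -0.16, beside 0.00 over all genes tested. Values of the 2 genotypes did not overlap for 8 members, 6 lower and 2 higher in cKO, and for 50.4% of all genes. Summed over the members, WT cultures had 2230 to 2276 CPM and cKO cultures 1743 to 1873, most of it Syt11. Markers of neurons moved in the same cultures: 12 of the 14 that could be tested were lower in cKO and none higher, with a median of -0.80. Their summed level was 3278 to 3515 CPM in WT and 2796 to 2904 in cKO. A smaller number of neurons and less RNA per neuron cannot be told apart in bulk RNA, and the part of neuron number in the members' values was not tested.

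**Figure D1:**
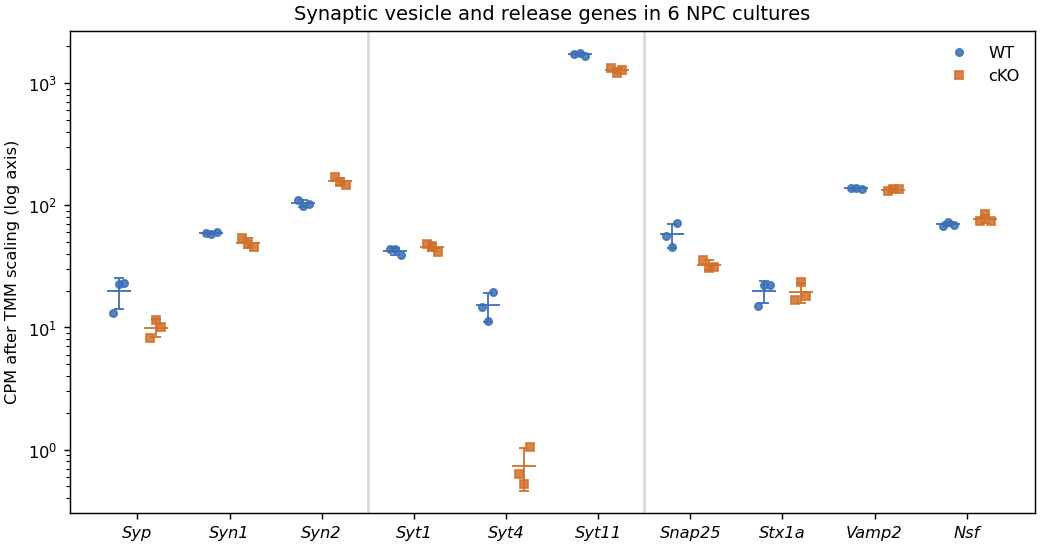
Level of each of the 10 members in each culture, in CPM after TMM scaling on a log axis, with points for the 3 WT and 3 cKO cultures and bars for the mean ± SD. Syt4 stands apart, with 11.3 to 19.4 CPM in WT and 0.524 to 1.06 CPM in cKO, and Syn2 is the called member that is higher in cKO.

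Among the vesicle proteins, synaptophysin and the synapsins went different ways. Syp (chrX:7638471-7653256, plus strand, mm10) encodes synaptophysin, and it was at 13.2, 22.6 and 23.3 CPM in WT, and 8.24, 11.6 and 10.1 in cKO. The lowest WT culture lay near the highest cKO culture, without overlap. The means were 19.7 ± 5.62 and 9.99 ± 1.68 CPM (SD, n = 3), a log2 difference of -0.98 (SE 0.20, adjusted p = 0.00147, edgeR). The gene overlaps the antisense gene Gm14703, which leaves 72.7% of the exon bases of Syp outside other genes.

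Syn1 (chrX:20860511-20921004, minus strand) and Syn2 (chr6:115134902-115282006, plus strand) encode synapsins, phosphoproteins that hold vesicles in reserve. Syn1 was at 59.5, 58.7 and 60.9 CPM in WT, and 54.2, 48.7 and 45.4 in cKO, so every cKO culture was lower by a small step. Its means of 59.7 ± 1.13 and 49.4 ± 4.48 CPM differed by -0.27 on the log2 scale (SE 0.09, adjusted p = 0.0299, edgeR). That call was lost without WT culture 3 (adjusted p = 0.0636), without cKO culture 2 (adjusted p = 0.0981) and without cKO culture 3 (adjusted p = 0.169). Syn2 went the other way, at 112, 97.9 and 103 CPM in WT, and 170.1, 154 and 147 in cKO. All cKO cultures were above all WT cultures, with means of 104 ± 6.92 and 157 ± 11.8 CPM (log2 difference 0.59, SE 0.08, adjusted p = 7.01e-05, edgeR). For Syn2, 73.2% of exon bases lay outside other genes, among them Timp4, which sits within it on the opposite strand.

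Because the paralogues Syn1 and Syn2 moved in opposite directions, the DNA upstream of their start sites is shown, from RefSeq (GRCm38.p6), 5′ to 3′ on the gene's strand. Windows from 250 bases before to 50 after the start were searched on both strands for the left part of the RE1 element, TTCAGCACC, its right part, GGACAGCG, the cAMP response element, TGACGTCA, the GC box, GGGCGG, and an E-box, CAGATG. RE1 is the element bound by REST, a repressor of neuronal genes. Capitals mark the RE1 left part and the cAMP response element in Syn1 (chrX:20921005-20921168, minus strand) and GC boxes in Syn2 (chr6:115134652-115134901, plus strand).
Syn1: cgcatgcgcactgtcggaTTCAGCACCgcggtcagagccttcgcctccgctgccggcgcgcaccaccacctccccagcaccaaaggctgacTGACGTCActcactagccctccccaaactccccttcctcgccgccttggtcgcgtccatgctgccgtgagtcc
Syn2: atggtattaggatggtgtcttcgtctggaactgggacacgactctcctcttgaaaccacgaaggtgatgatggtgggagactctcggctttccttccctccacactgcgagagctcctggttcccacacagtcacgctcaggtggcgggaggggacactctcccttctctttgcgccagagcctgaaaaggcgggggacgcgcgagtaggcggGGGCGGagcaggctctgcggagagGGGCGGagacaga

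The Syn1 window held the RE1 left part at -232 and the cAMP response element at -159, counted from the RefSeq start site. For Syn1 that site lies downstream of the gene start given above. The stretch shown stops at that gene start, which puts its last base at -87 by the RefSeq count. Those letters occur in 0.371% and 1.79% of all 32851 windows. The Syn2 window held GC boxes at -37 and -13 on its own strand and at 20 on the other, a motif found in 35.7% of all windows, and its second window held the E-box (17.2% of all windows). Of the other members with a window, Syp, Syt1, Syt11 and Stx1a held GC boxes alone among the motifs searched, and Nsf held none. RefSeq windows were matched for 7 of the 10 members. A match of letters is a description of the sequence and does not show a bound site.

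The synaptotagmins are membrane proteins with paired C2 domains. Syt4 (chr18:31437808-31447415, minus strand) and Syt11 form a pair that lacks the calcium binding of Syt1 in one C2 domain and serves other membrane traffic. Syt4 was at 14.8, 11.3 and 19.4 CPM in WT, and 0.638, 0.524 and 1.06 in cKO, from 328, 203 and 435 reads against 13, 9 and 22. The genotypes were far apart, with means of 15.2 ± 4.06 and 0.741 ± 0.283 CPM and a log2 difference of -4.33 (SE 0.27, adjusted p = 8.53e-08, edgeR). Of its span, 73.9% is overlapped by the antisense gene Gm26658, which had 1 count over all 6 cultures. If shared reads went to neither gene, what was counted as Syt4 came from the 2510 exon bases at its 3′ end. The rest of the transcript would then not have been measured.

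Syt11 (chr3:88744700-88775164, minus strand) was by far the most abundant member, at 1726, 1761 and 1685 CPM in WT, and 1334, 1206 and 1282 in cKO. Every cKO culture was below every WT culture, with means of 1724 ± 38.0 and 1274 ± 64.6 CPM (log2 difference -0.44, SE 0.08, adjusted p = 9.99e-04, edgeR). Syt1 (chr10:108497650-109010982, minus strand), the calcium sensor for fast release, was at 44.0, 43.5 and 38.9 CPM in WT, and 48.0, 46.3 and 41.6 in cKO. Its genotypes overlapped, and the log2 difference of 0.10 (SE 0.10) did not pass the test (adjusted p = 0.427, edgeR).

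Of the fusion proteins, Snap25 alone passed the test in the cultures. Snap25 (chr2:136713453-136782428, plus strand) was at 56.2, 46.0 and 71.2 CPM in WT, and 35.9, 30.5 and 31.2 in cKO. The WT cultures were spread widely but stayed above all cKO cultures, and the means of 57.8 ± 12.7 and 32.6 ± 2.92 CPM differed by -0.83 on the log2 scale (SE 0.14, adjusted p = 3.59e-04, edgeR). Its partner Stx1a (chr5:135023482-135051100, plus strand), the syntaxin of the plasma membrane, was at 15.1, 22.2 and 22.3 CPM in WT, and 16.7, 23.4 and 17.9 in cKO. These ranges overlapped, and the log2 difference was -0.04 (SE 0.16, adjusted p = 0.865, edgeR).

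Vamp2 (chr11:69088490-69092384, plus strand), the vesicle SNARE, was at 138.6, 139.8 and 137 CPM in WT, and 131, 136.6 and 135 in cKO. The WT values were all slightly above the cKO values, by a log2 difference of -0.04 (SE 0.07, adjusted p = 0.641, edgeR). Nsf (chr11:103821782-103954056, minus strand) was at 68.3, 72.9 and 69.0 CPM in WT, and 73.8, 84.9 and 73.8 in cKO. Its cKO values were all higher, but the log2 difference of 0.14 (SE 0.08) did not pass the test (adjusted p = 0.190, edgeR).

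Levels of different genes were compared per kb of the exon bases that lay outside other genes, taken as those that could be counted. Reads in introns count toward a gene as well, so this scale is approximate. In WT, Syt11 led with 331 ± 7.30 CPM per kb, followed by Vamp2 (36.4 ± 0.319), Syn2 (20.2 ± 1.34) and Syn1 (18.2 ± 0.344). The 6 other members lay between 5.06 (Syt1) and 8.51 (Snap25) CPM per kb. Neighbours in that order from Snap25 down to Syt1 differed by less than the spread between cultures. In cKO the 4 leading members held their order, Snap25 went from place 5 to place 8, and Syt4 was last at 0.295 ± 0.113 CPM per kb.

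Other genes of the pathway were read from lists by role, 107 genes in all, of which 93 were tested. Of these 16 were higher in cKO, 35 were lower and 42 did not pass, with a median log2 difference of -0.17. Over all genes tested 19.7% were higher and 19.8% lower, and these shares also stand beside each count by list below. The 5 genes Vamp3, Slc18a3, Itsn1, Sncg and Syngr2 were listed at 0 in all cultures. Vesicle membrane and vesicle-bound proteins had the lowest median of these lists, -0.42, with 12 of 19 lower and 1 higher. In that list Rab3d, a small GTPase of secretory vesicles, went from 8.87 ± 1.98 to 2.80 ± 0.258 CPM (log2 difference -1.67, adjusted p = 2.75e-05, edgeR). Syn3, the remaining synapsin, rose like Syn2, from 25.2 ± 1.97 to 31.9 ± 2.99 CPM (0.34, adjusted p = 0.0185, edgeR).

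SNARE proteins and their regulators had 9 of 21 lower and 3 higher (median -0.17). The syntaxin Stx2 went from 69.2 ± 2.62 to 41.7 ± 2.25 CPM (-0.73, adjusted p = 2.30e-05, edgeR), and Stxbp5, or tomosyn, an inhibitor of SNARE assembly, from 80.1 ± 6.08 to 114 ± 6.95 CPM (0.50, adjusted p = 2.70e-04, edgeR). Vesicle endocytosis had 8 of 23 lower and 5 higher (median -0.17), with Pacsin1 at -1.57 (adjusted p = 1.23e-04, edgeR) and the endophilin Sh3gl2 at 0.62 (adjusted p = 4.44e-04, edgeR).

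The active zone list, by contrast, had 5 of 13 higher and 2 lower (median 0.15), with the scaffold Rims2 at 0.71 (adjusted p = 3.83e-05, edgeR) and the liprin Ppfia2 at -1.01 (adjusted p = 7.57e-05, edgeR). Synaptotagmins other than the members had 2 of 12 higher and 2 lower (median 0.07), and Syt6 rose by 0.45 (adjusted p = 0.0185, edgeR). Transmitter loading had 2 of 5 lower and none higher (median 0.01), with Atp6v1g2, a subunit of the vesicle proton pump, at -0.38 (adjusted p = 0.0178, edgeR). Whether these lists differ from one another was not tested. Of the most abundant neuron markers, Mapt, a microtubule protein of axons, went from 561 ± 62.4 to 224 ± 17.4 CPM (-1.33, adjusted p = 2.57e-07, edgeR) and Dcx from 560 ± 53.1 to 454 ± 2.50 CPM (-0.30, adjusted p = 0.0124, edgeR). Map2 was at 1444 ± 129 and 1647 ± 73.4 CPM (0.19, adjusted p = 0.111, edgeR).

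**Figure D2:**
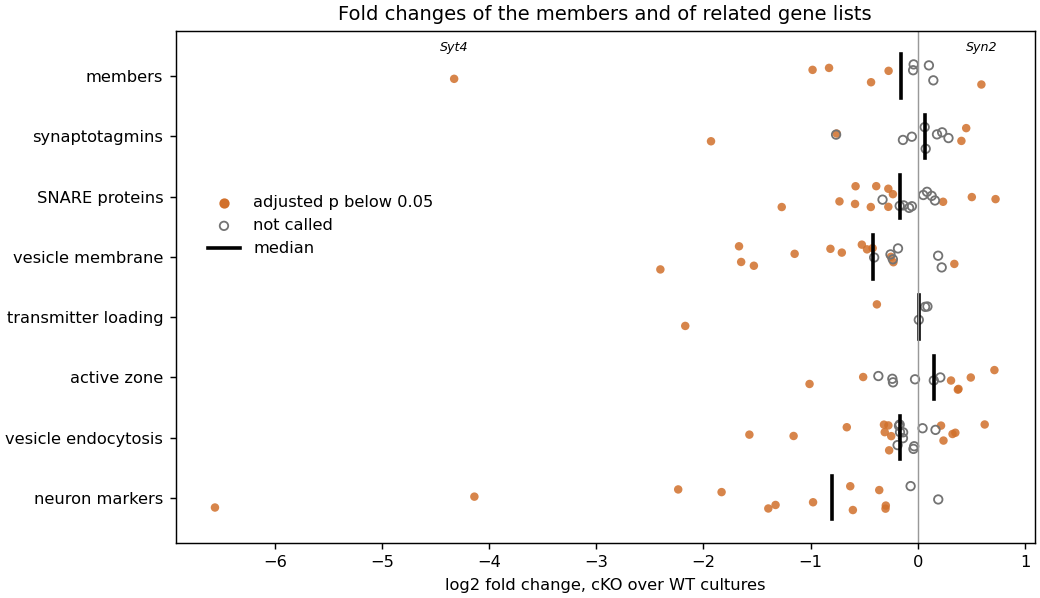
Log2 difference of cKO over WT cultures for the members and for each list, 1 point per gene tested, filled where the adjusted p is below 0.05, with a black bar at the list's median. The members' median is -0.16, that of neuron markers -0.80 and that of the active zone list 0.15.

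The single-cell libraries show in which cells of the neocortex these genes were used. Cells were clustered without the members, without the other synaptic vesicle genes and without sex and mitochondrial genes, and clusters were named from fixed markers. There were 762 apical progenitor-like cells in WT and 1094 in cKO, 708 and 764 intermediate progenitor-like, 1197 and 1202 migrating neuron-like, 2850 and 3237 immature neuron-like, and 1193 and 1643 ganglionic eminence-like cells. Smaller classes were Cajal-Retzius-like (64 and 111), endothelial-like (24 and 33), microglia-like (31 and 49), meningeal fibroblast-like (117 and 108) and red blood cell-like (54 and 55). Another 1214 WT and 1264 cKO cells stayed unnamed. With 1 embryo per genotype no test was possible, and the 95% intervals given below cover counting error only.

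Of the 10 members, 9 were higher in immature neuron-like than in apical progenitor-like cells of both embryos, and Syt11 was the exception. By the mean CPM of the WT and the cKO embryo, 40.7% of 14289 genes were higher in immature neuron-like cells. Called doublets bore on the levels in progenitors: 48 WT and 100 cKO apical progenitor-like cells were called and held 77.4% and 71.8% of that class's Snap25 UMIs and 62.9% and 71.9% of its Syt1 UMIs. For Syt11 the share was 9.9% and 13.2%. Levels in apical progenitor-like cells are with called doublets unless stated.

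Snap25 differed widely between progenitors and neurons. Apical progenitor-like cells had 18.8 CPM in WT and 27.1 in cKO, or 4.74 and 9.03 without called doublets. Intermediate progenitor-like cells had 76.0 and 70.6 CPM, or 50.2 and 45.7 without called doublets, migrating neuron-like cells 235 and 239.9, and immature neuron-like cells 329.6 (interval 324 to 335) and 279.8 (275 to 285). The other membrane SNARE, Stx1a, was at 7.60 and 6.41 CPM in apical progenitor-like cells (6.83 and 5.82 without called doublets), 18.7 and 19.0 in immature neuron-like and 36.4 and 31.2 in Cajal-Retzius-like cells. It was highest in endothelial-like cells, at 74.0 CPM (59.5 to 91.0) in WT and 61.6 (47.7 to 78.2) in cKO, where Snap25 was at 20.6 and 1.84 CPM. Endothelial-like cells of the WT embryo thus held more Snap25 than apical progenitor-like cells without called doublets, and no fold is given over that level.

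Vamp2 differed less, with 28.4 and 39.0 CPM in apical progenitor-like (28.4 and 36 without called doublets) and 76.8 and 80.3 CPM in immature neuron-like cells, and was highest in Cajal-Retzius-like cells at 128 and 133 CPM. Nsf, which every cell needs, was nearly flat: 43.8 and 49.8 CPM in apical progenitor-like cells (44.0 and 49.5 without called doublets) against 47.8 and 55.6 in immature neuron-like cells, with 57.4 and 64.6 in ganglionic eminence-like, 60.8 and 62.5 in endothelial-like and 73.3 and 47.2 in microglia-like cells. Its log2 ratio of immature neuron-like over apical progenitor-like cells was 0.13 (-0.01 to 0.27) in WT and 0.16 (0.05 to 0.27) in cKO.

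The synaptotagmins marked different cells. As a class, ganglionic eminence-like cells held the most Syt1, at 773 CPM (757 to 790) in WT and 808 (794 to 823) in cKO. Immature neuron-like cells had 316 and 372, and migrating neuron-like cells 63.5 and 60.7. Ganglionic eminence-like clusters were uneven, with 1369 and 1334 CPM in the one led by Sst and 765 and 724 in the one led by Nell1. Those led by Adarb2 (481 and 526), Isl1 (406 and 535) and 4930557F10Rik (95.9 and 135) were lower. These last clusters lay below an immature neuron-like cluster led by Hs3st3b1 (568 and 806). Syt4 was instead highest in immature neuron-like cells, at 168 (164 to 172) and 206 (202 to 210) CPM, then in migrating neuron-like cells at 88.4 and 99.6, and was low in ganglionic eminence-like cells at 39.4 and 39.8. Syt11 was used in every neural class and was highest in apical progenitor-like cells, at 356 (345 to 367) and 367 (359 to 376) CPM, or 357 and 378 without called doublets. Cajal-Retzius-like cells had 331 (294 to 371) and 250 (223 to 279) CPM of Syt11, so in WT these 2 classes cannot be ranked. Immature neuron-like cells had 209 and 200.4 CPM of Syt11, a log2 ratio over apical progenitor-like cells of -0.77 (-0.82 to -0.72) in WT and -0.87 (-0.92 to -0.83) in cKO. Endothelial-like cells had 31.2 and 27.6 CPM.

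The vesicle proteins differed in their pattern across the classes. Of the named classes, Syn2 was highest in Cajal-Retzius-like cells at 247 and 161 CPM and in migrating neuron-like cells at 157 (151 to 164) and 186 (179 to 194). It was lower in immature neuron-like cells at 37.2 (35.4 to 39.2) and 65.4 (63.1 to 67.8). An unnamed cluster led by Mfap4, of 741 WT and 664 cKO cells, held Syn2 at 202 and 194 CPM. Syn1, the paralogue of Syn2, did not have that peak, with 21.1 and 22.2 CPM in migrating neuron-like, 42.3 and 42.5 in immature neuron-like and 48.7 and 48.4 in ganglionic eminence-like cells. Syp was at 71.3 and 81.7 CPM in migrating neuron-like and 72.5 and 75.6 in immature neuron-like cells, classes whose WT intervals overlapped, and at 11.3 and 15.2 in apical progenitor-like cells (9.29 and 10.0 without called doublets).

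**Figure D3:**
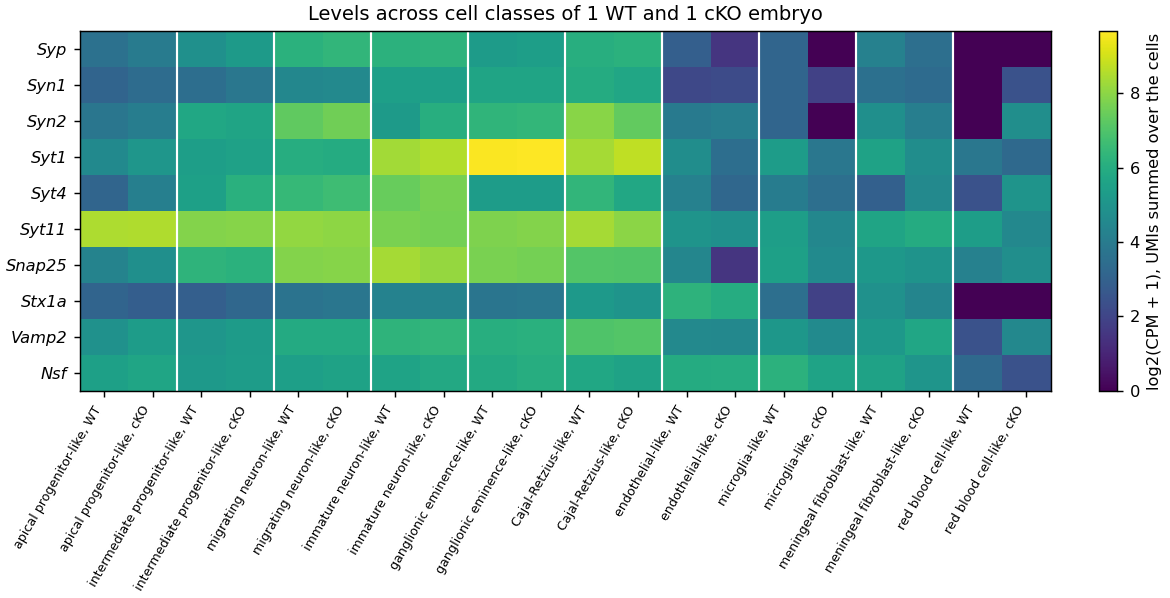
Level of the 10 members in 10 marker-defined cell classes of the WT and the cKO embryo, as log2(CPM + 1) of UMIs summed over the cells of a class, with called doublets kept. Syt11 is strongest in apical progenitor-like cells, Syt1 in ganglionic eminence-like cells, Syt4 and Snap25 in immature neuron-like cells, and Stx1a in endothelial-like cells of both embryos. In WT the counting interval of Syt11 in Cajal-Retzius-like cells covers that in apical progenitor-like cells.

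Shares of cells with at least 1 UMI were compared after every cell was thinned to 3000 UMIs. Shallower cells were left out, 12 WT and 6 cKO apical progenitor-like and 129 WT and 189 cKO immature neuron-like cells. Snap25 was found in 56.2% of immature neuron-like cells of the WT embryo (exact binomial interval 54.3 to 58.1) and 52.95% of those of the cKO embryo (51.2 to 54.7), against 2.27% and 5.33% of apical progenitor-like cells. Without thinning the shares were 87.5% and 86.5% against 11.9% and 17.8%. Endothelial-like cells, which should lack Snap25, had it in 3 of 24 WT cells, or 12.5% (2.66 to 32.4), and in 1 of 33 cKO cells, or 3.03% (0.08 to 15.8), and both shares in apical progenitor-like cells lay within or below these intervals and cannot be told from background. These endothelial-like cells were deep, with median UMIs of 39431 and 22067, beside 14619 and 13725 in immature neuron-like cells.

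Apical progenitor-like cells held Syt11 in 62.4% (58.8 to 65.9, WT) and 66.2% (63.3 to 69.0, cKO) of cases, against 45.1% and 44.1% of immature neuron-like cells. Without thinning these were 96.1%, 97.8%, 84.3% and 82.0%. Its endothelial-like share was 12.5% and 3.03%. For Syt1 the ganglionic eminence-like shares were 69.6% (66.6 to 72.4, WT) and 68.0% (65.5 to 70.4, cKO), against 47.6% and 47.8% of immature neuron-like cells. For Syt4 the immature neuron-like shares were 27.1% (25.5 to 28.8, WT) and 31.9% (30.2 to 33.6, cKO), against 6.77% and 7.01% of ganglionic eminence-like cells. In red blood cell-like cells Syt4 was seen in 0 of 33 WT cells. Taking 3 cells as the limit that a count of 0 allows, rather than the exact binomial interval, this allows a share of up to 9.09%.

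The genes whose pattern was most like a member's were sought over 20 points, 10 classes in 2 embryos, among 10872 genes, by Pearson's correlation of log2(CPM + 1). Points of one library share its depth, so these values are descriptions. Syt1 was most like Gm11659 (r = 0.969), Mapt and Apba1. Syt4 was most like Gpm6a (r = 0.912), Gpc2 and Dscam, and Syt11 most like Fsd1l (r = 0.971), 2810049E08Rik and Zbtb12. Syp was most like Ksr2 (r = 0.970), Abhd18 and Plppr2, and Syn1 most like A330076H08Rik (r = 0.964), Usp29 and Kifap3. Stx1a was most like Bok (r = 0.959), Plpp5 and Magi3, Vamp2 most like Armc6 (r = 0.965), Sema4g and Fam20c, and Nsf most like Chic2 (r = 0.970), Slc23a2 and Gcc2. Among the members themselves, Vamp2 and Syn1 were the most alike (r = 0.956) and Stx1a and Snap25 the least (r = 0.101).

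For the other synaptic vesicle genes, the CPM of the WT and the cKO embryo were averaged, and no count was made per embryo. By this mean, 75 of 98 were higher in immature neuron-like than in apical progenitor-like cells, beside 40.7% of 14289 genes. By list these were 16 of 20 vesicle membrane and vesicle-bound proteins, 17 of 24 SNARE proteins and regulators, 20 of 24 endocytosis genes, 10 of 13 active zone genes, 6 of 8 transmitter loading genes and 6 of 9 synaptotagmins.

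Within classes, the cKO embryo was compared with the WT embryo as a log2 ratio of summed UMIs per total. A difference of 1.25-fold either way served as the size to count, since 1 embryo per genotype allows no test. In immature neuron-like cells 1 of 10 members was past that size, beside 9.07% of 11681 genes. That member was Syn2, at a log2 ratio of 0.81 (0.72 to 0.90), the direction it also had in the cultures. Snap25 was lower in cKO by a smaller ratio, -0.24 (-0.27 to -0.20), again the direction of the cultures. Syt11 was at -0.06 (-0.10 to -0.02). Syt1 at 0.24 (0.20 to 0.27), Syt4 at 0.29 (0.25 to 0.34) and Nsf at 0.22 (0.13 to 0.30) were higher in cKO, while the intervals of Syp, Syn1, Stx1a and Vamp2 included 0. The summed level of 16 neuron markers in this class was 10328 CPM in WT and 10086 in cKO (log2 ratio -0.03), with 8 of 16 higher in cKO.

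In migrating neuron-like cells 0 of 10 members were past 1.25-fold, beside 6.83% of 9304 genes. Syn2 was at 0.25 (0.16 to 0.33), Syp at 0.20 (0.07 to 0.32) and Syt4 at 0.17 (0.06 to 0.29), and Syt11 at -0.08 (-0.14 to -0.01). Removing doublets before clustering changed which cells made up this class and moved Syt1 from -0.06 to 0.74 and Syt4 to 0.68, both past 1.25-fold, and the stricter cell filter gave 0.90 and 0.74. Ganglionic eminence-like cells, outside the Cre domain, had 0 of 10 past that size, beside 6.42% of 9827 genes. There Syt1 was at 0.06 (0.02 to 0.10), Nsf at 0.17 (0.02 to 0.32) and Snap25 at -0.09 (-0.17 to -0.01). Without called doublets the intervals of Syt1 (-0.0004 to 0.0862), Nsf (-0.0006 to 0.324) and Snap25 (-0.14 to 0.03) included 0. Syt11 was at 0.0778 (0.001 to 0.155) with called doublets and at 0.0907 (0.0054 to 0.176) without them. Syt4 in ganglionic eminence-like cells was at 0.02 (-0.17 to 0.20) with called doublets and at -0.32 (-0.55 to -0.10), past the size, without them. With doublets kept, its clusters went both ways, with -0.97 (-1.37 to -0.58) in the one led by Isl1, 0.44 (0.08 to 0.81) in the one led by Sst and 0.78 (0.37 to 1.21) in the one led by Nell1, and intervals that included 0 in the remaining clusters.

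Apical progenitor-like cells had 6 of 10 members past 1.25-fold, all higher in cKO, beside 9.63% of 10300 genes. Markers of neurons were higher in the same cells, 15 of 16 of them, with a summed 1329 CPM in WT and 1626 in cKO (log2 ratio 0.29, 0.26 to 0.32). Without called doublets the count was 3 of 10, namely Snap25 at 0.93 (0.46 to 1.42), Syt4 at 0.60 (0.12 to 1.09) and Vamp2 at 0.34 (0.14 to 0.55). The share of all genes past that size was not computed without called doublets, so this count has no share beside it. The levels behind the Snap25 ratio (4.74 and 9.03 CPM) and the Syt4 ratio (5.01 and 7.59 CPM) cannot be told from background. Endothelial-like cells of the WT embryo held 20.6 CPM of Snap25 and 18.1 of Syt4. Those of the cKO embryo held 1.84 (0.22 to 6.64) and 8.27 (3.78 to 15.7) CPM, so this measure of background differed between the embryos. The 9.03 CPM of Snap25 in cKO lay between the 2 endothelial-like levels. All endothelial-like levels are with called doublets. Syt1 was at 0.54 (0.33 to 0.75) with and 0.23 (-0.13 to 0.60) without them. Syt4 was at 1.12 (0.78 to 1.46) with them. The part of neuronal RNA in these values was not tested beyond the removal of doublets.

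Intermediate progenitor-like cells had 2 of the 8 members with enough UMIs past 1.25-fold, beside 7.96% of 8602 genes. They were Syt4 at 0.63 (0.44 to 0.82) and Syp at 0.44 (0.19 to 0.69). Without called doublets 4 of 8 were past it, with Syt4 at 0.49 (0.26 to 0.72), Syp at 0.47 (0.18 to 0.76), Syt1 at 0.48 (0.09 to 0.89) and Vamp2 at 0.34 (0.05 to 0.63). The share of all genes was not computed without called doublets. The levels behind this Syt1 ratio (13.3 and 18.6 CPM) cannot be told from background. Endothelial-like cells held 25.5 CPM of Syt1 in WT and 10.1 in cKO. The levels behind the Vamp2 ratio were 26.4 and 33.4 CPM, beside 22.2 (14.6 to 32.3) and 22.1 (14.1 to 32.8) in endothelial-like cells. Cajal-Retzius-like cells had 3 of 5 past it, beside 16.2% of 2149 genes. Syn2 was at -0.62 (-0.90 to -0.34) and Syt11 at -0.40 (-0.64 to -0.17), lower in cKO, and Syt1 at 0.40 (0.19 to 0.61). Syn2 in Cajal-Retzius-like cells thus went against its direction in immature neuron-like cells.

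**Figure D4:**
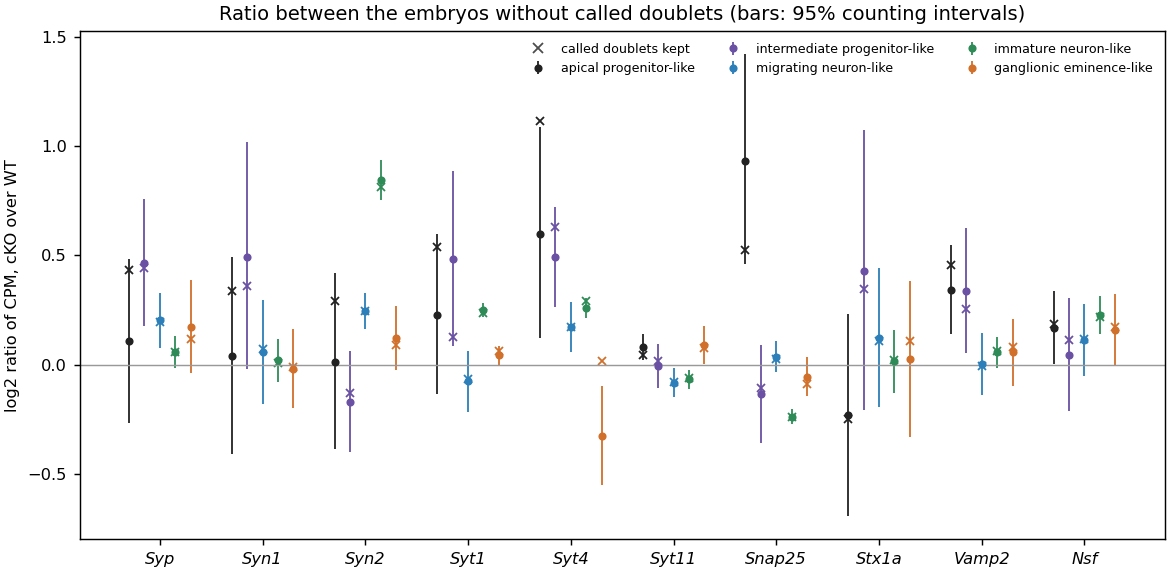
Log2 ratio of the cKO over the WT embryo for each member in 5 cell classes without called doublets, with bars for the 95% interval of counting error, and crosses for the ratio with doublets kept. Syn2 in immature neuron-like cells lies far above 0 and Snap25 in immature neuron-like cells below it, while the high point of Snap25 in apical progenitor-like cells rests on levels that cannot be told from background.

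Summed over all cells, Syt4 was at 0.23 (0.20 to 0.27) and so was not lower in the cKO embryo, unlike in the cKO cultures. Syp was at 0.06 (0.01 to 0.11) and Vamp2 at 0.09 (0.04 to 0.14). Snap25 was at -0.20 (-0.22 to -0.17) and Syn2 at 0.15 (0.11 to 0.19), with the signs of the cultures. Syt1 was at 0.22 (0.20 to 0.25) and Nsf at 0.17 (0.11 to 0.22), and the intervals of Syn1, Syt11 and Stx1a included 0. The cultures and the embryos differed in tissue, in library type and in the part of the gene that was counted, so the size of a difference cannot be set across them.

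Immature neuron-like cells fell into 6 clusters, which carried the members unequally. A cluster led by Tafa1 held 138 of the 2850 WT cells of the class and 468 of the 3237 cKO cells, and one led by Cdh12 held 861 and 704. Syt4 was at 802 CPM (761 to 843) in WT and 525 (505 to 544) in cKO in the Tafa1-led cluster, and at 29.1 and 37.2 CPM in the cluster led by Hs3st3b1. Syt4 was thus lower in cKO within the Tafa1-led cluster, at a log2 ratio of -0.61 (-0.70 to -0.52), and higher in the clusters led by Cdh12 (0.39), Kctd8 (0.34), Crabp1 (0.36) and Hs3st3b1 (0.35). Leaving out the Tafa1-led cluster gave 0.22 (0.17 to 0.28) for the class, and weighting the 6 clusters equally gave -0.14, so the direction of Syt4 in this class depends on how its clusters are weighted.

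Syn2 and Snap25 kept their direction in most of the 6 clusters. Syn2 was higher in cKO in the clusters led by Cdh12 (20.4 and 32.4 CPM), Kctd8 (25.0 and 47.4), Crabp1 (56.9 and 70.3), Hs3st3b1 (60.9 and 108) and Tafa1 (62.5 and 109.7). Snap25 was lower in cKO in the clusters led by Kctd8 (430.5 and 336 CPM), Hs3st3b1 (394 and 307), Crabp1 (317 and 279) and Cdh12 (270.3 and 246). In the Tafa1-led cluster it was at 210.4 and 229.5 CPM, with an interval of the log2 ratio that included 0 (-0.04 to 0.29). In the sixth, led by 1110008P14Rik, the intervals of Syn2, Snap25, Syt1 and Syt4 included 0. Syt1 was at 568 and 806 CPM in the cluster led by Hs3st3b1 (0.51, 0.44 to 0.57), and was lower in cKO in the cluster led by Cdh12 at -0.11 (-0.19 to -0.04).

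**Figure D5:**
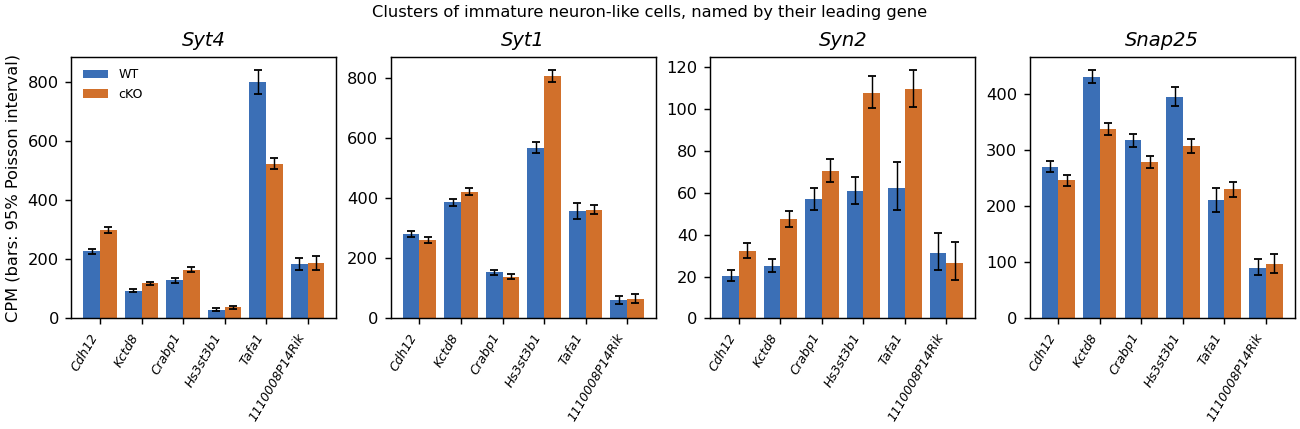
Level in CPM of Syt4, Syt1, Syn2 and Snap25 in the 6 clusters of immature neuron-like cells, each named by its leading gene, with a bar for the WT and a bar for the cKO embryo and 95% counting intervals. Syt4 is highest in the Tafa1-led cluster, at 802 CPM in WT, and 525 in cKO.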

How the data were processed

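NPC RNA-seq and single-cell RNA-seq (10x Genomics 3′ kit) of WT and Syncrip cKO mice were analysed. The authors deposited raw counts per gene for 6 cultures, from paired-end NEBNext libraries aligned with HISAT2 to mm10, and UMI counts per gene and barcode from Cell Ranger. For the counting program, its annotation and its strand setting nothing is stated in the labels or methods used here. Every column was matched to a sample by name (0 unmatched), and groups came from the labels. LACE-seq samples were not analysed here. The members and gene lists were chosen with earlier results of these data known.

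Culture counts were tested with edgeR 4.0.16 (R 4.3.3) by the robust quasi-likelihood test with TMM scaling, filterByExpr and Benjamini-Hochberg adjustment over 14432 genes. CPM used TMM library sizes. The script was tested on simulated counts. Exon lengths and coordinates came from the table and GENCODE M21 (GRCm38), and promoters from RefSeq.

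Barcodes under 200 genes or over 10% mitochondrial UMIs were dropped, and the cells left were clustered with Seurat 5.3.0 (2000 variable genes, 30 components, resolution 0.8). A cluster took a class name if at least 3 of its markers were raised 1.5-fold and their mean standardized level reached 0.5, limits that were set after the clusters were seen. Doublets were called with Scrublet (scanpy 1.11.5) and kept unless stated. UMIs were summed per class and library. Levels have exact Poisson and ratios exact conditional (Clopper-Pearson) 95% intervals, and shares exact binomial ones, all for counting error only.

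All 10 members are named. Of each other list, the called genes of largest rise and fall with a mean of at least 5 CPM are named, as are the 3 neuron markers of highest CPM and, for likeness, the 3 genes of highest correlation among those with at least 500 UMIs per library. Likeness of Snap25 and Syn2 is not reported here.

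Alternatives were other scalings (RLE, upper quartile), count filters, DESeq2 1.42.0, limma-voom (limma 3.58.1), a replicate block, sex as a covariate, leaving out each culture, other clustering resolutions, a stricter cell filter, doublet removal before clustering, other thinning depths and equal weights for clusters. Doublet removal with the same clusters and leaving out the Tafa1-led cluster were chosen after seeing the data.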

Additional observations from a re-analysis of the deposited data

Results flagged for a closer look

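Differences between groups drew attention in the members listed here. In each case the difference between the groups was not tested, because there was 1 embryo per genotype, and values are log2 ratios of cKO over WT.

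Between the cultures and the whole neocortex, Syt4, Syp and Vamp2 went opposite ways. Every cKO culture was lower than every WT culture for these 3 genes, whereas over all cells of the embryos the ratio was 0.23 for Syt4, 0.0587 for Syp and 0.0888 for Vamp2, each with an interval above 0. For Vamp2 the cultures' difference did not pass the test (adjusted p = 0.641, edgeR's quasi-likelihood test with Benjamini-Hochberg adjustment). For Syt4, 2510 exon bases at the 3′ end lie outside the antisense gene Gm26658. If shared reads went to neither gene, the reads counted in the cultures came from these bases.

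Between cell classes, without called doublets, 3 members had intervals on both sides of 0. Syt4 was higher in cKO in apical progenitor-like (0.60, on levels of 5.01 and 7.59 CPM that cannot be told from background), intermediate progenitor-like (0.49), migrating neuron-like (0.17) and immature neuron-like cells (0.26), and lower in ganglionic eminence-like cells (-0.32), where it was at 0.02 with called doublets kept and where clusters went both ways. Snap25 was higher in apical progenitor-like cells (0.93), on levels of 4.74 CPM in WT and 9.03 in cKO that cannot be told from background, and lower in immature neuron-like cells (-0.24). Syt11 was slightly higher in apical progenitor-like (0.0803) and ganglionic eminence-like cells (0.0907) and slightly lower in migrating neuron-like (-0.0823) and immature neuron-like cells (-0.0657).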

How the results depend on the processing

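In the cultures, Syp, Syn2, Syt4, Syt11 and Snap25 were called in the same direction under all 14 alternatives, and Syt1, Stx1a, Vamp2 and Nsf under none. Syn1 was called under 11, and leaving out single cultures gave log2 differences of -0.35 to -0.21 with 4 to 5 members called lower. Stx1a, which never passed the test, changed sign when WT culture 2 (0.0338), WT culture 3 (0.0519), cKO culture 1 (0.0477) or cKO culture 3 (0.0131) was left out, and ranged from -0.21 to 0.0519. Among the 93 other synaptic vesicle genes tested, 16 were called higher with all cultures and 7 to 17 with a culture left out, 7 without WT culture 2, 9 without cKO culture 1 and 7 without cKO culture 2, and those called lower ranged from 27 to 41. With the replicate block, 5 members were lower and 1 higher, and of the other genes 40 were lower and 19 higher. The deviations of same-numbered cultures correlated at 0.26, -0.05 and 0.12, and those of other pairs ranged from -0.34 to 0.29. With 3 cultures per genotype these values cannot show whether same-numbered cultures shared a litter or a batch. The main test did not pair them. In single cells, 9 members were higher in immature neuron-like than in apical progenitor-like cells under each alternative run. The 1 member lower in ganglionic eminence-like cells with an interval below 0 became 0 under the stricter cell filter of 1000 genes and 5% mitochondrial UMIs. Syt4 in immature neuron-like cells changed sign, to -0.14, with clusters weighted equally. Of the genotype ratios under the alternatives, those outside the counting interval were 8 of 60 in apical progenitor-like, 4 of 48 in intermediate progenitor-like, 13 of 50 in migrating neuron-like, 12 of 70 in immature neuron-like and 2 of 60 in ganglionic eminence-like cells. In migrating neuron-like cells Syt1 went from -0.06 to 0.74 when doublets were removed before clustering, which also changed which cells made up the class. The cause of these shifts was not tested.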
